A study of Mus musculus with 36 samples.

Results

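The cultures described here are mouse bone marrow cells labelled as Taf1 knockout that had spent 2 days in macrophage cytokines. They are set against cells of the same genotype that had spent those 2 days in granulocyte cytokines. The libraries are the 3 knockout macrophage and the 3 knockout granulocyte libraries of day 5, 6 of the 36 libraries of the study. These were picked by their labels, with values joined by gene symbol over 24411 genes. Taf1 encodes the biggest protein of TFIID, a complex that also holds the TATA-binding protein, binds core promoters and helps to place RNA polymerase II at the start site. Macrophages and neutrophilic granulocytes come from a common myeloid progenitor. M-CSF acts through the receptor encoded by Csf1r and drives monocytes and macrophages, GM-CSF acts through the receptor chains Csf2ra and Csf2rb, and G-CSF acts through Csf3r and drives neutrophil production. SCF, the ligand of Kit, and IL-3 keep progenitors growing and are also the classical growth factors of mast cells and basophils.

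Haematopoietic stem and progenitor cells were taken from the bone marrow of Taf1 knockout mice of a conditional model, or of wild-type mice as controls, and were grown in medium with 20% horse serum. All cultures first spent 3 days with SCF and IL-3. The macrophage cultures of day 5 then received GM-CSF with M-CSF for 2 days, and the granulocyte cultures of day 5 received SCF, IL-3 and G-CSF for 2 days, each cytokine at 50 ng/ml. The groups used are knockout macrophage and knockout granulocyte cultures at day 5, the same 2 cultures of wild-type control cells at day 5, knockout macrophage and granulocyte cultures at day 7 (after 2 more days in M-CSF alone or G-CSF alone), and knockout cells at day 3, with 3 libraries each. The labels do not state the age of the mice, the deleted part of Taf1 or how deletion was induced. They also do not state whether replicates came from separate mice, so p-values measure a spread between libraries that may be technical. For each day that spread was pooled over the knockout and control libraries of both cultures. Both day 5 cultures were sequenced unsorted, so fewer cells of a type and less RNA per cell of that type cannot be told apart, and the effects of the single cytokines in which the cultures differ cannot be told apart either.

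Values are TPM, the share of each gene in all transcripts of a library after correction for length, as deposited, and the sequencing depth behind them is unknown. Between 10289 and 10683 genes reached 1 TPM in the 6 knockout libraries of day 5. Taf1 itself was at 6.15, 6.23 and 5.94 TPM in knockout macrophage cultures and 7.39, 7.19 and 7.49 TPM in knockout granulocyte cultures, against 12.6, 12.99 and 13.8 TPM in control macrophage cultures and 16.3, 13.3 and 12.9 TPM in control granulocyte cultures. Taf1 lies at chrX:101532734-101601789 (mm10, plus strand). Whether the counted reads fall in its deleted part, and whether all cells of the unsorted cultures carried the deletion, is not known. The calprotectin genes S100a8 and S100a9, abundant in neutrophils and monocytes, together took 17.8%, 23.4% and 23.4% of all TPM in knockout macrophage cultures and 17.7%, 20.8% and 21.6% in knockout granulocyte cultures. In both cultures replicate 1 stood apart from replicates 2 and 3. On log2(TPM + 1), macrophage replicate 1 correlated by 0.9855 with granulocyte replicate 1, and by 0.9852 and 0.9853 with macrophage replicates 2 and 3. Granulocyte replicate 1 correlated by 0.9869 and 0.9838 with granulocyte replicates 2 and 3. Replicate 1 was thus about as close to its counterpart in the other culture as to the other replicates of its own. A change is called here where the adjusted p of limma, a linear model fitted to log2(TPM + 1) of all genes, was below 0.05, and every log2 difference is macrophage minus granulocyte on that scale, with its standard error (SE) where one is given. SE and p of the knockout differences at day 5 also carry the spread of the control libraries. Replicate 1 stood apart in the control cultures as well. There S100a8 and S100a9 took 4.93%, 14.5% and 14.2% of TPM in macrophage cultures and 5.49%, 13.9% and 14.4% in granulocyte cultures.

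The genes with the largest excess in knockout macrophage cultures included 3 chemokines that attract monocytes and a scavenger receptor. Ccl12, a mouse ligand of the monocyte chemokine receptor CCR2, was at 112, 137 and 153 TPM in knockout macrophage cultures and 30.5, 12.6 and 12.3 TPM in knockout granulocyte cultures, a log2 difference of 2.91 ± 0.31 (limma adjusted p = 0.000237). Ccl2, the chief CCR2 ligand, was at 1026, 1484 and 1412 against 380.2, 294 and 289 TPM (log2 2.01 ± 0.15, adjusted p = 3.19e-05). Every macrophage library lay above every granulocyte library for both genes, which the choice of the genes with the largest excess required. Granulocyte replicate 1 was the highest of its group for both. Ccl7, the third CCR2 ligand of the same cluster on chromosome 11, was at 263, 378 and 384 against 131, 68.6 and 70.04 TPM (log2 1.96 ± 0.23). The 3 genes are neighbours in one cluster, Ccl2 at chr11:82035571-82037453, Ccl7 at chr11:82045712-82047525 and Ccl12 at chr11:82101845-82103400 (mm10), all on the plus strand.

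Msr1, the class A scavenger receptor through which macrophages take up modified lipoproteins and bacteria, was at 23.4, 36.7 and 33.4 TPM in knockout macrophage cultures and 5.99, 3.93 and 4.49 TPM in knockout granulocyte cultures (log2 2.46 ± 0.16, adjusted p = 1.45e-05). Gja5, a connexin, was at 4.08, 7.32 and 7.19 TPM in macrophage cultures, against 0.53, 0.52 and 0.4 TPM in granulocyte cultures. Gdf15, a stress-induced member of the TGF-beta family, was at 29.97, 40.2 and 37.5 against 9.34, 6.80 and 6.80 TPM. The log2 differences of Gja5 and Gdf15 were 2.24 and 2.10. Spp1, the secreted phosphoprotein osteopontin, was at 801, 1402 and 1190.5 against 362, 253 and 252 TPM, and Emp1, a membrane protein, at 45.4, 56.2 and 53.5 against 21.0, 10.02 and 9.31 TPM. Pid1, an adaptor protein, was at 5.81, 7.28 and 6.32 against 0.89, 0.6 and 0.76 TPM, below 1 TPM in every granulocyte library.

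The other 3 of the 12 largest were high in replicate 1 of both cultures. Car4, a membrane-bound carbonic anhydrase, was at 51.8, 20.8 and 18.9 TPM in knockout macrophage cultures and 8.92, 3.28 and 3.84 TPM in knockout granulocyte cultures. Mmp13, a collagenase, was at 56.8, 24.4 and 29.5 against 13.6, 4.87 and 5.29 TPM, and Ch25h, which makes 25-hydroxycholesterol, at 18.1, 7.54 and 6.95 against 4.17, 0.82 and 1.13 TPM. Their log2 differences were 2.27 ± 0.62, 2.13 ± 0.61 and 2.005 ± 0.57 (adjusted p = 0.0318, 0.0366 and 0.035). These calls were lost when any 1 of the 6 libraries other than granulocyte replicate 1 was left out: the lowest differences were then 1.82 for Car4, 1.77 for Mmp13 and 1.60 for Ch25h without macrophage replicate 1, and the highest adjusted p were 0.121, 0.138 and 0.139, all without granulocyte replicate 2.

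The genes with the largest deficit in knockout macrophage cultures included products of mast cells, basophils and T helper 2 cytokine programmes. Gzmb, which encodes the serine protease granzyme B and is also expressed by mast cells, was at 11.3, 7.65 and 12.1 TPM in knockout macrophage cultures and 92.1, 192 and 242 TPM in knockout granulocyte cultures (log2 -3.87 ± 0.43, adjusted p = 0.000305). Tph1, the rate-limiting enzyme of serotonin synthesis outside the brain, was at 2.36, 0.8 and 1.65 against 15.2, 48.1 and 49.5 TPM (log2 -3.76 ± 0.44). For both genes granulocyte replicate 1 was the lowest of its group. It lay above every macrophage library, which the choice of the genes with the largest deficit required. Il13, the type 2 cytokine, was at 1.29, 0.74 and 1.25 against 8.96, 16.7 and 19.9 TPM (log2 -2.90 ± 0.25, adjusted p = 7.08e-05). Car2, a cytosolic carbonic anhydrase found in erythroid cells and osteoclasts among others, was at 7.51, 5.34 and 6.80 against 69.2, 105 and 96.5 TPM (log2 -3.58 ± 0.21, adjusted p = 6.33e-06).

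Csf1, the gene for M-CSF itself, was at 9.01, 11.5 and 11.8 TPM in knockout macrophage cultures, which received that protein in the medium, and 57.8, 66.97 and 77.3 TPM in knockout granulocyte cultures, which did not (log2 -2.54 ± 0.19, adjusted p = 3.19e-05). Spns2, the sphingosine-1-phosphate exporter, was at 2.97, 1.46 and 1.29 against 12.6, 17.4 and 17.7 TPM. The serine protease inhibitors Serpina3g and Serpina3f, of neighbouring genes at chr12:104236245-104241939 and chr12:104214544-104221129, had log2 differences of -2.96 ± 0.16 and -2.87 ± 0.10. Serpina3f had the smallest p of the 24 genes, with 1.74, 1.19 and 1.51 against 16.7, 16.8 and 17.7 TPM (adjusted p = 1.14e-07). The aldo-keto reductases Akr1c18, which inactivates progesterone, and Akr1c12 had differences of -2.70 ± 0.36 and -2.53 ± 0.29. Both families hold near-identical copies among which reads can be divided, so values of single members are uncertain.

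Retnla, a secreted product of type 2 activation, was at 14.7, 0.97 and 1.83 TPM in knockout macrophage cultures and 149.6, 37.9 and 35.1 TPM in knockout granulocyte cultures, and Ccl24, an eosinophil-attracting chemokine, at 125, 10.3 and 21.8 against 417, 183 and 159.9 TPM. Replicate 1 was the highest library in both cultures for both genes, and its macrophage value of Ccl24 lay close to the lowest granulocyte values. Their log2 differences were -3.75 ± 0.83 and -2.86 ± 0.74 (adjusted p = 0.0127 and 0.0255). The call of Retnla was lost without macrophage replicate 2 or 3 (-3.16 and -3.42, adjusted p = 0.059 and 0.0592). That of Ccl24 was lost without any 1 library other than macrophage replicate 1, with differences of -2.11 to -3.12 and adjusted p of 0.0537 to 0.0968.

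**Figure D1:**
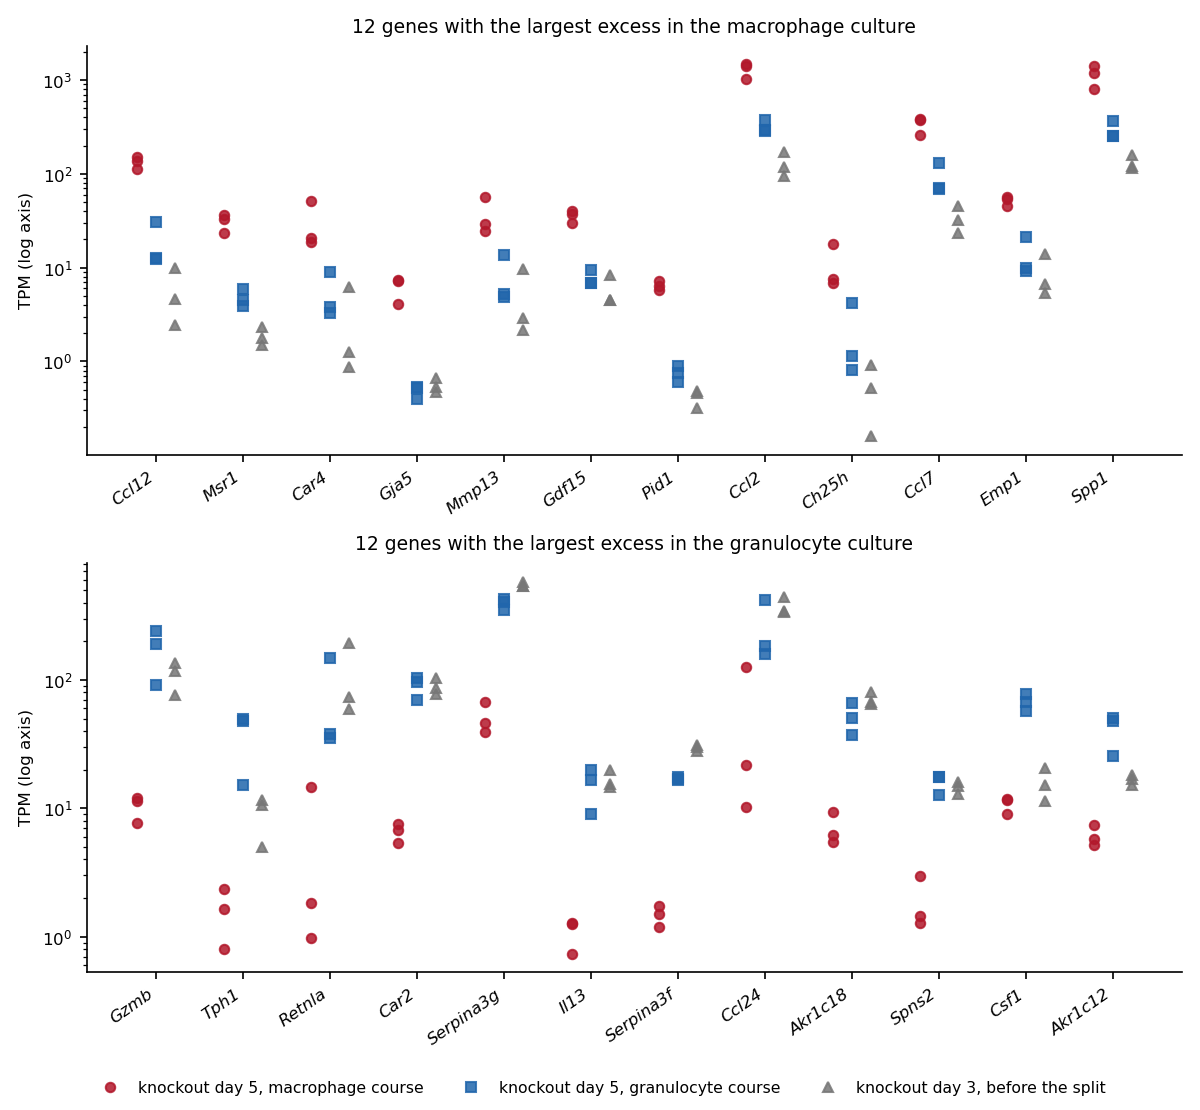
TPM on a log axis of the 12 genes with the largest excess in knockout macrophage cultures (upper panel) and the 12 with the largest excess in knockout granulocyte cultures (lower panel), 1 point per library, with knockout day 3 cultures beside them. Macrophage and granulocyte libraries of day 5 do not overlap for any of the 24 genes, which the choice of these genes required, and mean day 3 levels lie below the macrophage means in the upper panel and above them in the lower one.

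Because TFIID binds at core promoters, the letters just before the start sites of these genes are shown for the first genes of each direction whose window in the RefSeq promoter table (build GRCm38.p6) overlaps no annotated exon, 200 bases each, read 5′ to 3′ on the gene's strand and ending at the base before the RefSeq start site. Capitals mark the TATA box letters TATAAA, the letters GAGGAAGT of PU.1 sites or TTGCNNAA of C/EBP sites, on either strand. The regions are chr11:82101645-82101844 (plus strand) for Ccl12, chr11:84957554-84957753 (plus) for Car4, chr3:97032202-97032401 (plus) for Gja5, chr14:56262335-56262534 (minus) for Gzmb and chr7:46672538-46672737 (minus) for Tph1.
Ccl12: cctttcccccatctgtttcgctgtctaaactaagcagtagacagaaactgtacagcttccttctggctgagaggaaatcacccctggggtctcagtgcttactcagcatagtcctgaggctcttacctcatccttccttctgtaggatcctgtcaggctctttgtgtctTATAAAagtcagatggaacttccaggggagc
Car4: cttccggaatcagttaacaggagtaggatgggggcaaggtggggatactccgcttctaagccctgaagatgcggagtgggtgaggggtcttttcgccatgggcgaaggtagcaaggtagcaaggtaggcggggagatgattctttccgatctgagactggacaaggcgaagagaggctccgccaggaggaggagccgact
Gja5: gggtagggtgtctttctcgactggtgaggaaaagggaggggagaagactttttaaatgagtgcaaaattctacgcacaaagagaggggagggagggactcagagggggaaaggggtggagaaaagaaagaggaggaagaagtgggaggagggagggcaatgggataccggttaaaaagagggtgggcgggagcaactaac
Gzmb: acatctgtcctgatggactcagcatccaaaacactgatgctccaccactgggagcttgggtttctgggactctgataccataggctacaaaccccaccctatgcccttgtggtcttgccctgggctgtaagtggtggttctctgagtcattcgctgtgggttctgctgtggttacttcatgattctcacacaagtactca
Tph1: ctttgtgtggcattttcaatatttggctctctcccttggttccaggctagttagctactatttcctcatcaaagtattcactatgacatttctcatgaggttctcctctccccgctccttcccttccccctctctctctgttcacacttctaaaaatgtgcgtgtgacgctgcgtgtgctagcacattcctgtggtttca
Ccl12 holds TATAAA with its first base at position -31, counted back from -1 just before the start site, and the other 4 stretches hold none of the 3 motifs. Over the 250 bases before the start site, TATAAA stood in 9.98% of the 411 promoter windows matched to genes higher in knockout macrophage cultures, 7.46% of the 1407 windows of genes lower there and 6.13% of the 10851 windows of all genes tested, and in 12.4% of all 32851 windows of the table. GAGGAAGT stood in 4.14%, 2.91%, 2.84% and 2.44% of the same 4 sets of windows, and TTGCNNAA in 12.2%, 9.31%, 7.79% and 9.56%. A gene can have several windows, and these shares are a description of letters, not of binding.

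Of the 11119 genes tested, 407 (3.66%) were higher and 1431 (12.9%) were lower in knockout macrophage cultures than in knockout granulocyte cultures, and the median log2 difference of all genes was -0.149. That lean towards lower values moved with the scaling. After scaling the libraries by the median of ratios, the median was 0.0172, and 925 genes (8.35%) were higher and 681 (6.15%) lower, so a small difference in either direction is read relative to the all-gene median. All 407 higher genes stayed higher after that scaling, and 680 of the 1431 lower genes stayed lower. With the replicate number as a block, 1025 genes (9.22%) were higher and 3848 (34.6%) lower. In a fit of the 6 knockout libraries alone, 686 of 10635 genes were higher and 3294 lower. Leaving out macrophage replicate 2 or 3 or granulocyte replicate 2 or 3 lowered the total of 1838 calls to 897, 849, 845 and 938, and leaving out replicate 1 of both cultures lowered it to 1249. The counts of gene lists at day 5 given below are to be read beside the shares of all genes in the same fit.

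**Figure D2:**
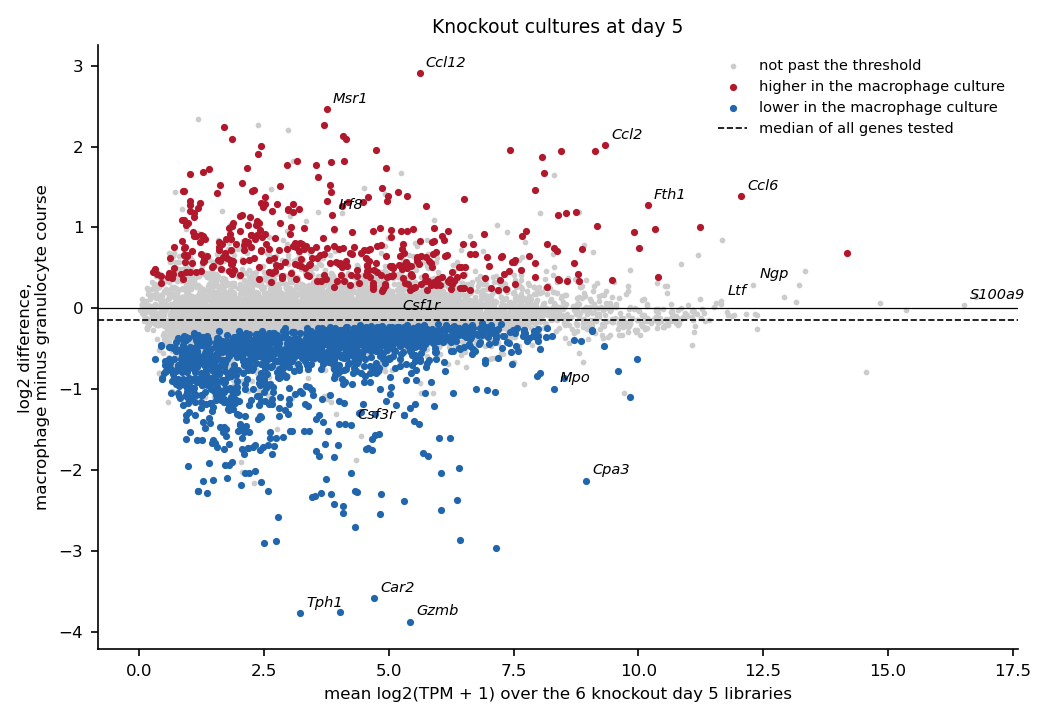
Log2 difference between knockout macrophage and knockout granulocyte cultures at day 5 (vertical axis) against the mean log2(TPM + 1) over the 6 libraries (horizontal axis), 1 point per gene for 11119 genes. Coloured points passed the threshold, and the dashed line at -0.149 is the median of all genes. Ccl12 and Msr1 lie at the top, Gzmb, Tph1 and Car2 at the bottom, and the neutrophil granule genes Ltf and Ngp near 0.

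Part of the macrophage identity genes were higher in the macrophage cultures. Of 25 tested, 7 were higher and 0 lower (9 and 0 after scaling, 17 and 1 with the block), with a median difference of 0.353. Besides Msr1 they included Gpnmb, a lysosomal membrane glycoprotein of lipid-loaded macrophages, at 253, 510.0 and 505 TPM in knockout macrophage cultures and 148, 138 and 150.3 TPM in knockout granulocyte cultures (log2 1.46 ± 0.22), and Fcgr1, the high-affinity IgG receptor, at 4.03, 7.96 and 6.89 against 1.18, 1.63 and 1.47 TPM (log2 1.55 ± 0.31). For Gpnmb and Fcgr1 macrophage replicate 1 was the lowest of its group and remained above all granulocyte libraries. The complement receptor C5ar1 (0.84 ± 0.13), the pore-forming Mpeg1 (0.70 ± 0.11) and the apoptotic-cell receptor Axl (0.88 ± 0.15) were smaller differences that also passed.

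Other defining macrophage genes did not pass the test with all libraries. Adgre1, a surface receptor widely used as a macrophage marker, was at 44.8, 44.5 and 46.6 TPM in knockout macrophage cultures and 45.8, 39.99 and 41.9 TPM in knockout granulocyte cultures (log2 0.09 ± 0.11, adjusted p = 0.602). Itgam, the CD11b integrin chain of macrophages and neutrophils, was at 166, 265 and 259 against 139, 187 and 209.6 TPM (log2 0.35 ± 0.18, adjusted p = 0.204, or 0.00195 with the replicate block). It passed without macrophage replicate 1 (0.57, adjusted p = 0.0252) and without replicate 1 of both cultures (0.40, adjusted p = 0.0138). Mrc1, the mannose receptor, was at 143, 89.1 and 105 against 148, 57.9 and 52.5 TPM (log2 0.52 ± 0.36, adjusted p = 0.344, or 0.0446 with the block), and it passed without granulocyte replicate 1 (0.99, adjusted p = 0.0314). The groups overlap for Adgre1, Itgam and Mrc1. Markers of resident tissue macrophages were low throughout: Cx3cr1, Marco, Cd163, Siglec1 and Vsig4 stayed below 1 TPM in all 6 libraries, and Timd4 was listed at 0.

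Among transcription factors of monocytes and macrophages, 4 of 19 were higher and 0 lower (8 and 0 after scaling, 9 and 3 with the block), with a median of 0.203. Irf8, which monocyte commitment requires and which restrains neutrophil production, was at 18.6, 23.8 and 19.7 TPM in knockout macrophage cultures and 9.56, 8.52 and 8.18 TPM in knockout granulocyte cultures (log2 1.15 ± 0.12, adjusted p = 0.000208), with clearly separate groups. Irf5, which drives inflammatory cytokine genes, was at 42.3, 49.1 and 44.96 against 35.1, 30.02 and 29.9 TPM (log2 0.51 ± 0.096). The lysosome regulator Tfeb (0.34 ± 0.084, adjusted p = 0.0223) and the sterol-sensing receptor Nr1h3 (0.92 ± 0.25, adjusted p = 0.0295) passed narrowly. Without macrophage replicate 2 or 3 or granulocyte replicate 2 or 3, Tfeb no longer passed (0.305 to 0.339, adjusted p of 0.0696 to 0.0961), and Nr1h3 did not pass without any 1 library other than granulocyte replicate 1 (0.77 to 1.0, adjusted p of 0.0625 to 0.115). Spi1, which encodes PU.1, the master factor of the myeloid lineage, was at 209, 225 and 241 against 206, 209.5 and 222 TPM (adjusted p = 0.576). Klf4, a monocyte factor, had a difference of 1.14 ± 0.50 (adjusted p = 0.14, or 0.000177 with the block and 0.0141 in the 2 groups alone).

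Part of the lysosomal and lipid genes were higher in the macrophage cultures. Of 30 lysosomal genes 10 were higher and 0 lower (18 and 0 after scaling, 21 and 2 with the block, median 0.322), and of 18 genes of lipid handling 8 were higher and 0 lower (10 and 0 after scaling, 12 and 3 with the block, median 0.312). The protease Ctsl was at 563, 438 and 491 TPM in knockout macrophage cultures and 296, 110.0 and 112 TPM in knockout granulocyte cultures (log2 1.68 ± 0.37, adjusted p = 0.0129), with granulocyte replicate 1 well above replicates 2 and 3. Ctsb (0.71 ± 0.15), Ctsc (0.64 ± 0.10) and the hexosaminidase gene Hexa (0.42 ± 0.085) also passed. Lpl, the lipoprotein lipase, was at 131, 148 and 155 against 53.7, 53.7 and 60.4 TPM (log2 1.35 ± 0.15, adjusted p = 0.000301), and the lipid droplet coat gene Plin2 at 1276, 1327 and 1384 against 823, 609 and 651 TPM. In both genes the groups were separate. Ctsl lost its call without granulocyte replicate 2 or 3 (1.44 and 1.45, adjusted p = 0.0639 and 0.0597). Without macrophage replicate 2 or 3 or granulocyte replicate 2 or 3, Ctsb (0.62 to 0.66, adjusted p of 0.0527 to 0.0604) and Plin2 (0.86 to 0.95, adjusted p of 0.0723 to 0.0949) did not pass.

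Fth1, the ferritin heavy chain that stores iron, was at 1153, 2369 and 2164 TPM in knockout macrophage cultures and 556, 825 and 902 TPM in knockout granulocyte cultures (log2 1.28 ± 0.26, adjusted p = 0.00847), with replicate 1 the lowest in both. The phagosomal metal transporter Slc11a1 was at 9.39, 14.2 and 10.9 against 5.32, 7.07 and 5.95 TPM (log2 0.80 ± 0.16). Plau, the urokinase that activates plasminogen, was at 59.5, 58.7 and 58.02 against 22.5, 19.8 and 20.8 TPM, a small spread in both groups (log2 1.44 ± 0.10, adjusted p = 3.08e-05), and its receptor gene Plaur differed by 0.89 ± 0.15. C3ar1, a complement receptor, was at 11.9, 12.2 and 12.7 against 5.23, 3.89 and 4.28 TPM (log2 1.28 ± 0.18).

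Of 18 monocyte chemokine genes, 6 were higher and 2 lower (6 and 1 after scaling, 11 and 4 with the block), with a median of 0.492. Ccl6, constitutively made by mouse myeloid cells, was the most abundant of those named, at 5609.9, 7862 and 7389 TPM in knockout macrophage cultures and 2781, 2469 and 2661 TPM in knockout granulocyte cultures (log2 1.39 ± 0.20, adjusted p = 0.00135). Wfdc17, a secreted protein of activated macrophages, was at 498, 897 and 728 against 187, 198 and 152 TPM (log2 1.95 ± 0.23). Among the S100 calcium-binding proteins 3 of 8 were higher: S100a10 (1.15 ± 0.13), S100a6 (1.01 ± 0.16) and S100a4 (1.20 ± 0.19). S100a6 had nearly equal values within each group, 3423, 3435 and 3386 against 1691, 1779.8 and 1628 TPM.

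The receptors of the culture cytokines did not follow the cytokines in the medium alike. Of 12 cytokine receptor genes, 0 were higher and 6 lower in knockout macrophage cultures (0 and 4 after scaling, 0 and 7 with the block). Csf3r, the G-CSF receptor, was at 8.48, 11.8 and 11.5 TPM in knockout macrophage cultures and 23.3, 35.4 and 33.5 TPM in knockout granulocyte cultures (log2 -1.44 ± 0.20, adjusted p = 0.00101), and the groups did not overlap. Csf1r, the M-CSF receptor, was at 30.03, 34.9 and 35.5 against 42.4, 32.8 and 32.8 TPM (log2 -0.10 ± 0.11, adjusted p = 0.567), and Csf2ra, the GM-CSF receptor alpha chain, at 25.8, 24.99 and 25.1 against 24.1, 21.3 and 24.6 TPM (log2 0.11 ± 0.19, adjusted p = 0.709). The Csf1r groups overlapped and the Csf2ra groups lay just apart, and the Csf1r difference changed sign to 0.09 after scaling and to 0.02 without granulocyte replicate 1.

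Il1rl1, the IL-33 receptor of mast cells and basophils, was at 12.2, 10.7 and 12.8 TPM in knockout macrophage cultures and 39.6, 74.5 and 81.02 TPM in knockout granulocyte cultures, the largest receptor difference at -2.29 ± 0.24 (adjusted p = 0.000232). Ifngr1, a chain of the interferon gamma receptor, differed by -0.998 ± 0.19 and Epor, the erythropoietin receptor, by -0.72 ± 0.17. Kit was at 2.74, 4.51 and 4.73 against 5.44, 13.5 and 16.2 TPM and its groups did not overlap (log2 -1.26 ± 0.37, adjusted p = 0.0422). Csf2rb2, the mouse receptor chain specific for IL-3, was at 10.7, 14.9 and 18.3 against 20.4, 48.8 and 85.3 TPM (adjusted p = 0.0325), and its near-identical neighbour Csf2rb, the chain shared by IL-3, IL-5 and GM-CSF receptors, at 164, 210.0 and 227 against 200.4, 286 and 352 TPM (adjusted p = 0.116, or 0.00212 with the block, 0.0161 without granulocyte replicate 1 and 0.0266 without replicate 1 of both cultures). Reads can be divided between these copies. Kit and Csf2rb2 did not pass after scaling (-1.10 and -1.38, adjusted p = 0.0901 and 0.0544), nor without any 1 library other than granulocyte replicate 1 (Kit -0.98 to -1.37, adjusted p of 0.0856 to 0.158, and Csf2rb2 -1.09 to -1.73, adjusted p of 0.0632 to 0.112). Epor did not pass without macrophage replicate 2 or 3 or granulocyte replicate 3 (-0.57, -0.72 and -0.69, adjusted p = 0.0713, 0.0587 and 0.0649). Il3ra, Il6ra and Il6st had differences of -0.26, -0.05 and 0.10 and did not pass.

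Of 21 genes of cytokine signalling and its feedback, 4 were higher and 3 lower (6 and 3 after scaling, 6 and 5 with the block). Ccnd1, the G1 cyclin induced by M-CSF signalling, was at 24.4, 27.1 and 25.6 TPM in knockout macrophage cultures and 10.04, 5.44 and 5.22 TPM in knockout granulocyte cultures (log2 1.81 ± 0.20, adjusted p = 0.000268). The survival kinase gene Pim2 (-1.08 ± 0.19) and the NF-kB cofactor gene Bcl3 (-1.34 ± 0.24) were lower. The STAT5 target Cish was at 48.8, 35.2 and 36.4 against 50.3, 45.1 and 59.04 TPM and the STAT3 target Socs3 at 23.4, 32.3 and 30.6 against 21.2, 32.1 and 29.6 TPM, with overlapping groups in both genes, and neither passed (adjusted p = 0.213 and 0.8). Stat3, the factor that acts downstream of the G-CSF receptor, was at 34.4, 32.2 and 34.4 against 52.4, 55.99 and 56.8 TPM (log2 -0.69 ± 0.061, adjusted p = 7.92e-05).

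Most neutrophil granule genes, the defining markers of the granulocyte label, were abundant in both cultures and did not pass the test at this stage. Ltf, the lactoferrin of secondary granules, was at 2846, 3482 and 3708 TPM in knockout macrophage cultures and 2771, 3055 and 3601 TPM in knockout granulocyte cultures (log2 0.09 ± 0.41, adjusted p = 0.903). Ngp, another secondary granule protein, was at 4812, 5915 and 6125 against 3895, 4565 and 5326 TPM (adjusted p = 0.733, or 0.00758 with the block), and Camp, the cathelicidin, at 172, 91.8 and 87.7 against 90.7, 55.9 and 59.7 TPM (adjusted p = 0.421, or 0.000363 with the block). Groups overlapped in all 3 genes. Within each replicate number the macrophage culture was the higher one, but a pairing of replicates 2 and 3 is not shown. S100a8 and S100a9 differed by 0.15 ± 0.64 and 0.04 ± 0.43 (adjusted p = 0.897 and 0.961). Of 20 secondary and tertiary granule genes 2 were higher and 1 lower (3 and 1 after scaling, 8 and 2 with the block), with a median of 0.133. The higher ones include the neutrophil surface protein gene Cd177 (0.73 ± 0.16), whose call was lost without replicate 1 of both cultures (0.72, adjusted p = 0.0656). The lower one was Lrg1, a glycoprotein of neutrophil granules and the acute phase, at 21.2, 14.01 and 14.4 against 83.5, 102 and 81.9 TPM (log2 -2.38 ± 0.52, adjusted p = 0.0118). Its difference stayed between -2.28 and -2.30 without macrophage replicate 2 or 3 or granulocyte replicate 2, where it narrowly missed the threshold (adjusted p of 0.05 to 0.0528).

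Genes of the earlier, primary granule stage leaned towards the granulocyte cultures, with 1 of 11 higher and 3 lower in knockout macrophage cultures (1 and 3 after scaling, 2 and 8 with the block, median -0.625). Mpo, the myeloperoxidase of primary granules, was at 302, 182 and 202 TPM in knockout macrophage cultures and 489, 424 and 425 TPM in knockout granulocyte cultures (log2 -0.99 ± 0.18, adjusted p = 0.00516), and the protease gene Ctsg at 308, 247 and 263 against 491, 503 and 479 TPM (log2 -0.85 ± 0.17). Gfi1, a repressor needed for neutrophil production, was at 10.5, 7.93 and 8.37 against 15.7, 13.7 and 13.5 TPM (log2 -0.63 ± 0.14, adjusted p = 0.0123), a call lost without macrophage replicate 2 or 3 (-0.55 and -0.59, adjusted p = 0.0594 and 0.057). Elane, neutrophil elastase, had overlapping groups of 158, 81.4 and 85.5 against 186, 136 and 161 TPM (adjusted p = 0.247, or 0.00445 with the block). The lysozyme gene Lyz1 went the other way by 0.75 ± 0.18 (adjusted p = 0.0171), a call lost without macrophage replicate 2 or 3 or granulocyte replicate 1 or 3 (0.62 to 0.75, adjusted p of 0.0554 to 0.0779).

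Neutrophil surface receptors divided, with 4 of 17 higher and 3 lower (4 and 3 after scaling, 4 and 5 with the block). Cxcr2, the receptor by which neutrophils follow CXC chemokines, was at 42.6, 32.1 and 34.2 TPM in knockout macrophage cultures and 96.97, 123 and 116 TPM in knockout granulocyte cultures (log2 -1.60 ± 0.16, adjusted p = 0.000156). Clec4d, a C-type lectin of monocytes and neutrophils, was at 31.4, 75.2 and 70.2 against 10.9, 17.8 and 20.1 TPM (log2 1.74 ± 0.32). Of the C/EBP factors, Cebpa, needed for the granulocyte and monocyte progenitor, was lower at 29.4, 23.1 and 26.03 against 41.9, 45.4 and 44.8 TPM (log2 -0.73 ± 0.093, adjusted p = 0.000644), and Cebpb, used in emergency granulopoiesis and macrophage activation, was higher at 109, 71.2 and 76.8 against 51.2, 39.5 and 35.6 TPM (log2 0.999 ± 0.27, adjusted p = 0.0289). Cebpb did not pass without any 1 library other than granulocyte replicate 1 (0.81 to 1.12, adjusted p of 0.0528 to 0.109). Cebpe, needed for secondary granule genes, was at 162, 147 and 149.7 against 135, 125 and 134 TPM (adjusted p = 0.65, or 0.0196 with the block and 0.0273 in the 2 groups alone). Its groups did not overlap, although the difference was only 0.22 ± 0.30.

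Mast cell and basophil genes had the lowest median of the 43 lists. Of 17 tested, 0 were higher and 14 lower in knockout macrophage cultures (0 and 13 after scaling, 0 and 16 with the block), with a median of -1.67, and their summed level was 698 to 916 TPM in knockout macrophage cultures and 1497 to 2805 TPM in knockout granulocyte cultures. Cpa3, the mast cell carboxypeptidase, was at 221, 232 and 257 TPM in knockout macrophage cultures and 646, 1318 and 1304 TPM in knockout granulocyte cultures (log2 -2.13 ± 0.28, adjusted p = 0.000854). Hdc, which makes histamine, was at 33.8, 31.9 and 40.7 against 125, 213 and 239 TPM (log2 -2.36 ± 0.25). In both genes granulocyte replicate 1 was the lowest of its group. Tpsab1, a mast cell tryptase gene, stayed below 1 TPM in all 6 libraries. None of 10 eosinophil genes passed in either direction (median -0.125, and 1 higher and 4 lower with the block). The part of these cells in the other differences was not tested.

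Most progenitor genes tested were likewise lower in knockout macrophage cultures. Of 19 stem and progenitor transcription factors 0 were higher and 11 lower (0 and 9 after scaling, 0 and 16 with the block, median -0.726), and of 16 progenitor surface genes 2 were higher and 10 lower (3 and 7 after scaling, 3 and 11 with the block, median -0.76). Cd34, the sialomucin of haematopoietic progenitors, was at 33.3, 26.3 and 22.2 TPM in knockout macrophage cultures and 94.0, 106 and 86.05 TPM in knockout granulocyte cultures (log2 -1.78 ± 0.18, adjusted p = 0.000157). Myb, the proto-oncogene of immature blood cells, was at 21.7, 18.2 and 19.4 against 41.5, 47.6 and 45.4 TPM (log2 -1.14 ± 0.16). Gata1 (-1.59 ± 0.19), its cofactor Zfpm1 (-1.37 ± 0.18) and Tal1 (-1.40 ± 0.13), which act in the erythroid, megakaryocyte and mast cell lineages, were lower, as was Angpt1, a growth factor of the stem cell niche, at 1.64, 1.06 and 1.21 against 5.28, 7.89 and 8.13 TPM. Cd93, a surface protein shared by early progenitors and monocytes, was an exception at 49.97, 77.3 and 71.7 against 32.7, 38.3 and 37.3 TPM (log2 0.84 ± 0.13).

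Part of the platelet and erythroid markers were lower as well. Of 17 megakaryocyte genes 0 were higher and 7 lower (1 and 5 after scaling, 1 and 13 with the block, median -0.687). Itga2b and Itgb3, the chains of the platelet fibrinogen receptor, were at 36.6, 19.2 and 28.1 against 67.9, 67.7 and 83.8 TPM and 18.3, 9.23 and 12.4 against 42.7, 41.4 and 53.5 TPM (log2 -1.40 ± 0.24 and -1.75 ± 0.19), and the platelet glycoprotein gene Gp5 differed by -1.51 ± 0.25. Of 10 erythroid genes that passed the filter on low values, out of 18 in the table, 0 were higher and 7 lower (0 and 7 after scaling, 0 and 8 with the block, median -0.72). The globin gene Hbb-bt was at 1.79, 1.46 and 1.22 against 7.54, 8.09 and 6.16 TPM. Alas2 stayed below 1 TPM in all 6 libraries and the globin gene Hbb-bs was listed at 0. Lymphocyte genes were near 0, with 12 of 15 below 1 TPM in every library and a sum of 9.56 to 10.2 TPM in macrophage and 9.95 to 12.7 TPM in granulocyte cultures. Of 13 stromal and endothelial genes 10 stayed below 1 TPM, and the 2 tested, Pdgfrb (-1.67 ± 0.34) and Pecam1 (-1.32 ± 0.29), were lower. Pecam1, also a leukocyte and platelet protein, did not pass without macrophage replicate 3 (-1.18, adjusted p = 0.0588).

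**Figure D3:**
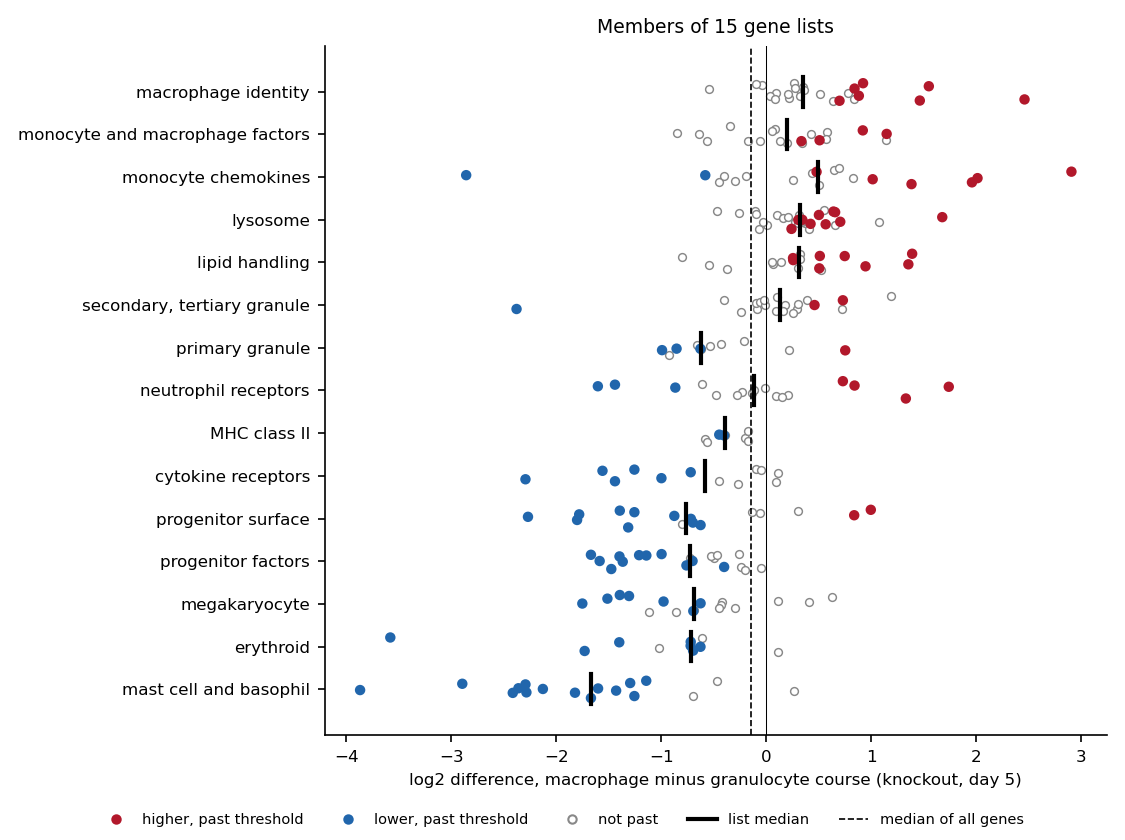
Log2 difference (horizontal axis) between knockout macrophage and knockout granulocyte cultures at day 5 for the tested members of 15 gene lists, 1 point per gene, with the median of each list as a black bar and the all-gene median of -0.149 as a dashed line. Mast cell and basophil genes reach furthest to the left with a median of -1.67, while macrophage, lysosome and lipid lists lie to the right and the secondary granule list straddles 0 with a median of 0.133.

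Of 8 MHC class II genes, which present antigen to T cells, 0 were higher and 2 lower (0 and 0 after scaling, 0 and 5 with the block, median -0.396). The 2 were H2-DMb1, a chain of the peptide-loading factor (-0.45 ± 0.12, adjusted p = 0.0335), and Ciita, the coactivator of the class II genes (-0.40 ± 0.12, adjusted p = 0.0444). Ciita did not pass without any 1 of the 6 libraries (-0.34 to -0.47, adjusted p of 0.0677 to 0.137), nor H2-DMb1 without any 1 other than granulocyte replicate 2 (-0.28 to -0.51, adjusted p of 0.0554 to 0.123). H2-Aa was at 30.1, 50.3 and 54.5 TPM in knockout macrophage cultures and 61.4, 64.4 and 72.3 TPM in knockout granulocyte cultures (adjusted p = 0.144, or 0.0188 with the block), and Cd74, the invariant chain, at 282, 372 and 382 against 392, 353 and 418 TPM (adjusted p = 0.462), with a difference of -0.17 that became 0.01 after scaling. Of 17 genes of GM-CSF dendritic cells 1 was higher and 3 lower (4 and 3 after scaling, 3 and 9 with the block). The count with all libraries lies near the shares of all genes tested, 3.66% higher and 12.9% lower. The costimulatory ligand gene Cd80 was higher (0.92 ± 0.21, adjusted p = 0.0151). The actin-bundling gene Fscn1 (-0.85 ± 0.22, adjusted p = 0.0241), the transcription factor gene Irf4 (-0.79 ± 0.22, adjusted p = 0.0353) and the cytokine receptor gene Flt3 (-0.70 ± 0.17, adjusted p = 0.0214) were lower. Cd80 did not pass without macrophage replicate 2 or 3 or granulocyte replicate 3 (0.82 to 0.92, adjusted p of 0.053 to 0.0694), and Fscn1 not without any 1 library other than granulocyte replicate 1 (-0.61 to -0.93, adjusted p of 0.0514 to 0.08). Irf4 did not pass without any 1 library other than macrophage replicate 1 (-0.63 to -0.82, adjusted p of 0.0758 to 0.139), and Flt3 not without any 1 other than macrophage replicate 2 or granulocyte replicate 3 (-0.63 to -0.70, adjusted p of 0.0508 to 0.0898). Itgax, the CD11c chain, overlapped at 13.6, 9.52 and 10.7 against 18.2, 11.6 and 12.6 TPM, and Ccl22, a dendritic cell chemokine, was at 48.3, 32.5 and 41.97 against 65.5, 75.9 and 119.9 TPM (adjusted p = 0.0795, or 0.0496 with the block and 0.019 in the 2 groups alone).

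Inflammatory genes were divided, with 3 of 21 higher and 6 lower (4 and 6 after scaling, 6 and 8 with the block). Il1b, the pro-inflammatory cytokine, was at 10.9, 7.87 and 6.62 TPM in knockout macrophage cultures and 34.1, 36.5 and 40.9 TPM in knockout granulocyte cultures (log2 -2.03 ± 0.16, adjusted p = 5.17e-05), whereas Nlrp3, the sensor of the inflammasome that matures that cytokine, was at 4.51, 6.29 and 5.67 against 1.87, 2.73 and 2.76 TPM (log2 0.91 ± 0.14). Nos2, the inducible nitric oxide synthase, was at 0.52, 0.07 and 0.05 against 2.86, 2.68 and 1.86 TPM (log2 -1.52 ± 0.24). Irf7, the interferon regulatory factor, was at 10.2, 9.94 and 8.81 against 25.7, 28.6 and 28.4 TPM (log2 -1.42 ± 0.094, adjusted p = 1.45e-05). It was the 1 lower gene among 21 interferon response genes tested, of which 3 were higher (3 and 1 after scaling, 4 and 6 with the block, median -0.0964). The 3 were Rsad2, which encodes viperin (0.86 ± 0.20, adjusted p = 0.0155), the nucleic acid sensor gene Zbp1 (0.53 ± 0.13, adjusted p = 0.0168) and Ifi35 (0.31 ± 0.089, adjusted p = 0.0396). Rsad2 did not pass without macrophage replicate 2 or 3 or granulocyte replicate 2 (0.71 to 0.82, adjusted p of 0.0664 to 0.07). Zbp1 did not pass without macrophage replicate 2 or 3 or granulocyte replicate 1 or 3 (0.46 to 0.54, adjusted p of 0.0547 to 0.0747), nor Ifi35 without any 1 library other than macrophage replicate 1 (0.22 to 0.35, adjusted p of 0.0639 to 0.139).

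Growth genes depended on the scaling. Of 26 S phase genes 0 were higher and 7 lower in knockout macrophage cultures, but 2 were higher and 0 lower after scaling (1 and 14 with the block), and of 24 Myc and nucleolar genes 0 were higher and 14 lower, but 0 and 2 after scaling (0 and 22 with the block). Mcm6, a subunit of the replicative helicase, was at 129.9, 121 and 121 TPM in knockout macrophage cultures and 165, 161 and 156 TPM in knockout granulocyte cultures (log2 -0.37 ± 0.062), which became -0.18 after scaling (adjusted p = 0.237). Fbl, the nucleolar methyltransferase fibrillarin, was at 65.2, 60.9 and 65.9 against 86.97, 96.3 and 95.1 TPM (log2 -0.53 ± 0.071) and passed also after scaling (-0.34, adjusted p = 0.0402). None of 50 cytosolic ribosomal protein genes passed (median -0.15, equal to the all-gene median to 2 digits, and 0 higher and 23 lower with the block). None of 15 TFIID subunit genes passed by limma (1 higher and 0 lower after scaling, 1 and 4 with the block). Taf1 differed by -0.23 ± 0.091 (limma adjusted p = 0.104). Among 16 alternatives it passed only in a fit of the 6 libraries alone (adjusted p = 0.0218), and the highest adjusted p was 0.593.

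Day 3 knockout cells, from the culture that was divided, place these differences. The 407 higher genes had a median log2 difference from day 3 of 0.827 in knockout macrophage cultures and 0.153 in knockout granulocyte cultures, and 355 (87.2%) lay farther from day 3 in the macrophage cultures. The 1431 lower genes had medians of -0.625 in macrophage cultures and -0.132 in granulocyte cultures, and 1320 (92.2%) lay farther from day 3 in the macrophage cultures. Among all genes tested the medians were -0.275 and -0.109, and 78.5% lay farther in the macrophage cultures. Car2 was at 77.6, 104 and 86.4 TPM at day 3, Cd34 at 89.99, 116 and 93.99 TPM and Spns2 at 12.9, 16.02 and 15.01 TPM, levels close to those of the granulocyte cultures. Myb, at 63.7, 87.8 and 86.8 TPM on day 3, had lower values in both day 5 cultures, as had Mpo and Ctsg, at 1018, 1159 and 1201 and 1128, 1527 and 1633 TPM on day 3. Csf1, at 20.7, 11.4 and 15.3 TPM on day 3, and Lrg1, at 24.97, 20.8 and 22.6 TPM, are genes in which the granulocyte cultures were the ones above day 3. Both cultures share the day 3 libraries here, so these values carry no test. The distances from day 3 were taken without scaling, for genes chosen by their difference between the 2 day 5 cultures. S100a8 and S100a9 took 13.5%, 12.9% and 12.1% of TPM at day 3, less than in either day 5 culture. The part of that shift in the distances was not tested.

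In wild-type control cells the same 2 cultures gave fewer calls at day 5, 130 higher (1.17%) and 252 lower (2.27%) in control macrophage cultures. Of the 407 genes higher in knockout macrophage cultures 100 (24.6%) were also higher in the control contrast, which is 76.9% of its 130. Of the 1431 lower genes 206 (14.4%) were also lower there, which is 81.7% of its 252. The 2 contrasts come from 1 fit and share the estimated spread of each gene, so these overlaps are not between independent calls. With the replicate block the control contrast gave 623 higher and 897 lower genes, and in a fit of the control cultures alone 44 and 114. Mast cell and basophil genes were again lower, 11 of 17 with a median of -1.79, while 1 of 25 macrophage identity genes was higher and 2 were lower, with a median of 0.191. A call in 1 genotype and not in the other is no difference between genotypes, which was tested directly.

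The difference between cultures itself differed between genotypes for 21 genes. Relative to control cells, 5 (0.045%) were shifted towards the macrophage cultures in knockout cells and 16 (0.144%) towards the granulocyte cultures, and after median-of-ratios scaling the split was 24 and 20. At an unadjusted p below 0.05 the count was 1084. With the replicate block 151 were shifted towards the macrophage and 205 towards the granulocyte cultures. Without knockout granulocyte replicate 2 or 3 the count was 0 in both cases (717 and 666 genes at an unadjusted p below 0.05), so each of the 21 calls was lost without either library. Saa3, an acute phase protein made by myeloid cells in mice, was at 2.79, 4.91 and 5.22 TPM in knockout macrophage cultures and 6.15, 6.71 and 8.27 TPM in knockout granulocyte cultures, against 11.02, 7.59 and 7.74 TPM in control macrophage cultures and 85.4, 73.9 and 74.5 TPM in control granulocyte cultures. The granulocyte culture thus exceeded the macrophage culture by a wide margin in control cells and by little in knockout cells, a difference of differences of 2.40 ± 0.28 (limma adjusted p = 0.00735). The genotype difference of Saa3 became 2.38 and 2.51 without knockout granulocyte replicate 2 or 3 (adjusted p = 0.11 and 0.0704).

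Ccl17, a chemokine of dendritic cells that attracts T cells, showed the reverse. It was at 591, 281 and 375 TPM in knockout macrophage cultures and 242, 227 and 278 TPM in knockout granulocyte cultures, against 203, 174 and 145 TPM in control macrophage cultures and 24.3, 25.6 and 24.5 TPM in control granulocyte cultures (difference -2.08 ± 0.31, adjusted p = 0.0382). The knockout granulocyte libraries all lay above the control granulocyte libraries. Within knockout cells the Ccl17 difference was 0.67 ± 0.22 (adjusted p = 0.0633, or 0.0176 with the block, 0.0266 after scaling, 0.0365 without the 20 highest genes and 0.019 without macrophage replicate 2). Il13 was low in all control libraries, at 0.39, 0.09 and 0.2 TPM in control macrophage and 0.69, 0.81 and 1.30 TPM in control granulocyte cultures (difference -2.25 ± 0.35, adjusted p = 0.0391). The scale of log2(TPM + 1) understates the control difference of Il13 at such low values. Car2 was at 9.96, 6.12 and 6.01 TPM in control macrophage cultures and 32.4, 24.7 and 24.8 TPM in control granulocyte cultures, so that its deficit in macrophage cultures was larger in knockout cells (-1.80 ± 0.30, adjusted p = 0.0486).

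Msr1 was at 104, 98.5 and 97.3 TPM in control macrophage cultures and 53.4, 47.2 and 47.8 TPM in control granulocyte cultures, levels above those of both knockout cultures with a smaller difference between them (1.46 ± 0.23, adjusted p = 0.0391). Gnat3, a G protein alpha subunit known from taste cells, was at 5.52, 5.14 and 5.67 TPM in knockout macrophage cultures and 2.83, 1.93 and 1.76 TPM in knockout granulocyte cultures, against at most 0.46 TPM in any control library (1.22 ± 0.18, adjusted p = 0.0311). At such low control values log2(TPM + 1) leaves little room for a difference between the control cultures. Agpat4, an enzyme of phospholipid synthesis, differed by 1.07 ± 0.16. Tal1 was at 12.1, 9.82 and 10.99 TPM in control macrophage cultures and 13.97, 12.8 and 12.6 TPM in control granulocyte cultures, close together where the knockout cultures were apart (-1.16 ± 0.19). The remaining genes named by the rule were Serpina3f (-1.36 ± 0.15, adjusted p = 0.00454), Fam92a (-1.03 ± 0.15), Igfbp4, a binding protein of insulin-like growth factors (-0.98 ± 0.13), and Nedd4, a ubiquitin ligase (-0.82 ± 0.13). The other 9 of the 21 stayed below a mean of 5 TPM in every day 5 group.

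**Figure D4:**
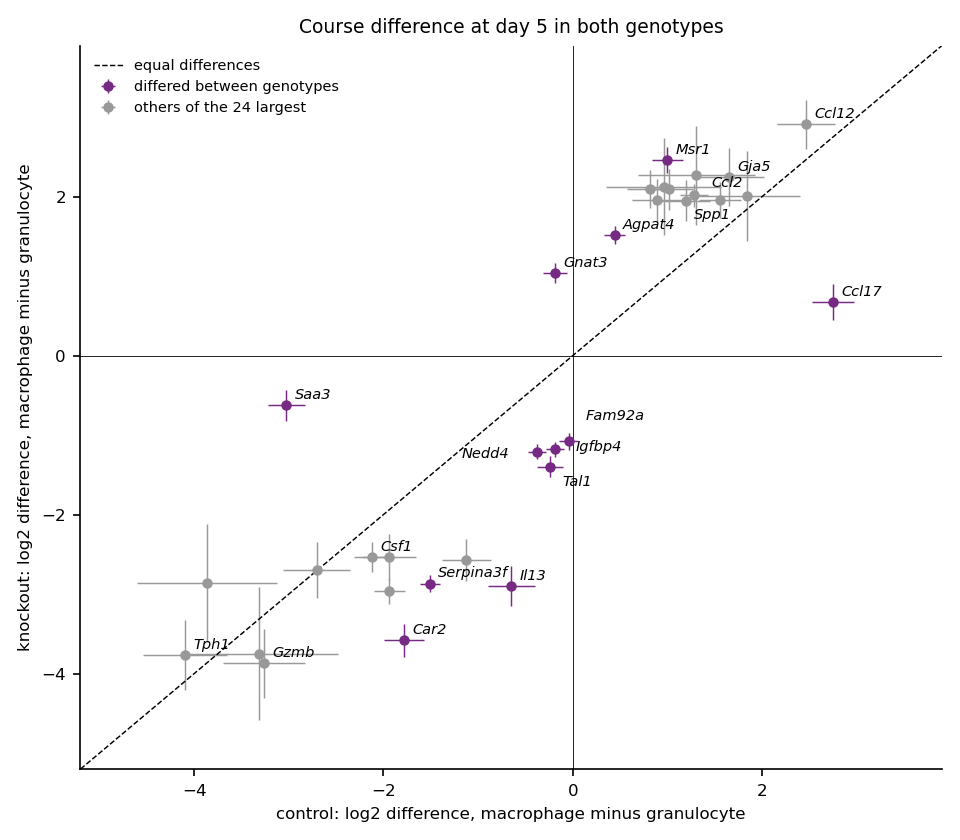
Log2 difference between macrophage and granulocyte cultures at day 5 in knockout cells (vertical axis) and in control cells (horizontal axis), with SE bars, for the 24 largest knockout differences and the 12 named genes that differed between genotypes. Points on the dashed line have equal differences in both genotypes, Saa3 lies far above it with -0.625 in knockout cells and -3.03 in control cells, and Ccl17, Il13 and Car2 lie below it.

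At day 7 more genes passed the test between the knockout cultures. Of 11269 genes tested among the day 7 libraries, 4227 (37.5%) were higher and 1740 (15.4%) lower in knockout macrophage cultures, with a median of 0.183 (3050 and 2767 after scaling, median 0.0274). Of the 407 genes higher at day 5, 260 (63.9%) were also higher at day 7, which is 6.15% of the 4227, and 26 (6.39%) were lower. Of the 1431 lower at day 5, 463 (32.4%) were also lower at day 7, which is 26.6% of the 1740, and 342 (23.9%) were higher. Mast cell and basophil genes kept their direction, with 16 of 16 tested lower and a median of -3.08. Gzmb was at 7.32, 0.31 and 2.70 TPM in knockout macrophage cultures of day 7 and 39.8, 115 and 147 TPM in knockout granulocyte cultures of day 7, and Cpa3 at 168, 71.3 and 151 against 731, 2872 and 3157 TPM.

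Most neutrophil granule genes passed the test at this later day. Of 20 secondary and tertiary granule genes 0 were higher and 16 lower in knockout macrophage cultures of day 7 (median -1.96). Ltf was at 654, 216 and 213 TPM in knockout macrophage cultures of day 7 and 1919, 1187 and 1329 TPM in knockout granulocyte cultures of day 7 (log2 -2.21 ± 0.43, limma adjusted p = 0.00146), and S100a9 at 18650.0, 11104 and 10255 against 80082, 72011 and 67935 TPM (log2 -2.51 ± 0.28). Csf3r was at 20.01, 29.7 and 25.1 against 145, 220.5 and 187 TPM and Socs3, which did not differ past the threshold at day 5, at 6.54, 13.6 and 12.97 against 101, 149 and 139 TPM. Macrophage identity genes were higher in 17 of 27 cases and lower in 4, and Csf1r was at 225, 249.7 and 234 against 131, 132 and 130.3 TPM (log2 0.84 ± 0.15). Of 26 S phase genes, 23 were higher and 0 lower at day 7, with a median of 0.498 against 0.183 for all genes, and list counts at day 7 were made without scaling. Day 5 and day 7 were fitted separately, and the difference between them was not tested.

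**Figure D5:**
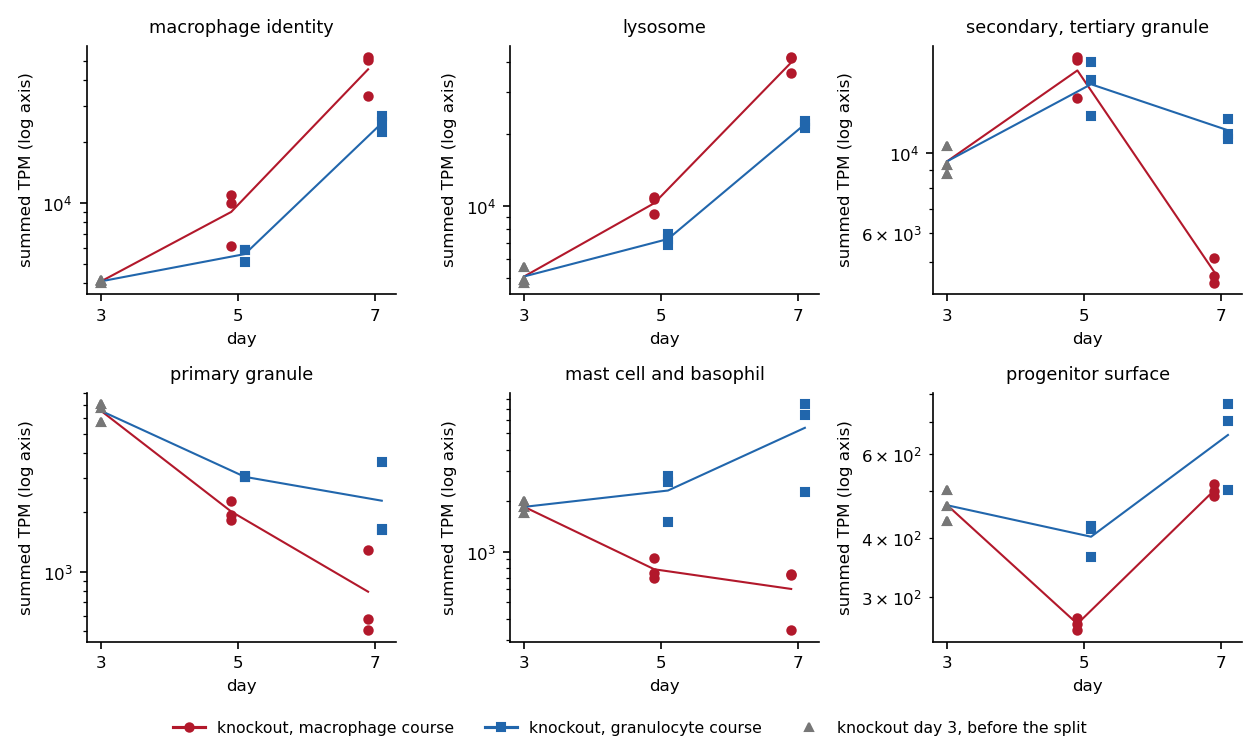
Summed TPM on a log axis of 6 gene lists in knockout cells at days 3, 5 and 7, 1 point per library and lines through the means, for the macrophage and the granulocyte course. Secondary and tertiary granule genes overlap between courses at day 5, at 14193 to 18460 and 12627 to 17907 TPM, and stand apart at day 7, at 4369 to 5130 and 10947 to 12411 TPM, while mast cell and basophil genes stand apart at both days.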

How the data were processed

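RNA of unsorted cultures was sequenced, with 3 libraries per group. The authors deposited TPM values (length-corrected transcript shares) per gene in 2 tables, whose 12 columns for days 0 and 3 are equal; RSEM, DESeq2 1.38.3 and the build mm10 are named per the submitters' processing notes, and the annotation and read depth are not given in the sources used here. TPM values sum to a fixed total, so a gene that takes a large share lowers all others. All columns mapped to a sample (0 were left over).

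Genes that reached 1 TPM in 3 or more of the 12 day 5 libraries were tested with limma 3.58.1 (R 4.3.3; Python 3.11.15 for tables) on log2(TPM + 1), in 1 fit of 4 groups with a trended variance and Benjamini-Hochberg adjustment over all genes, at a threshold of 0.05. This scale understates the change of low genes. The day 7 libraries were fitted in the same way by themselves. Tested on simulated data for the knockout day 5 comparison (11119 genes), the fit recovered 52%, 74%, 98% and 100% of changes of log2 0.5, 1, 2 and 3, with 7 false calls. The simulation drew independent noise for each library, changed only genes above a low level and left all others unchanged. It held neither the shared deviations of replicate 1 nor the shift of all genes, so these rates may not hold for the real libraries.

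Replicate numbers were taken to pair the samples in the block. Deviations from the group means correlated by 0.603, 0.313 and 0.439 between same-numbered macrophage and granulocyte cultures of knockout day 5, with -0.522 to 0.319 between others. The libraries numbered 1 thus deviated alike in both cultures. Whether they share an origin is not stated in the labels and is not shown by these correlations. Macrophage replicate 3 correlated with granulocyte replicate 2 by 0.319, above the 0.313 of the same-numbered replicate 2, so a pairing of replicates 2 and 3 is not shown. The pairing of the block comes from the titles' numbers, and the fit without the block is the one reported.

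Named genes are the 12 with the largest differences in each direction past the threshold with non-overlapping groups, the higher averaging 5 TPM or more, up to 5 with the smallest p per gene list, the cytokine receptors and other genes of the design, and up to 8 genes per direction that differed between genotypes. The members and the 43 lists were chosen with earlier results of these data known; 7 of 750 list symbols were not matched. Coordinates are from GENCODE (mm10) and promoter letters from RefSeq (GRCm38.p6). Alternatives were other pseudocounts and filters, other scalings, the replicate block, the 2 groups alone and leaving out each library.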

Additional observations from a re-analysis of the deposited data

Results flagged for a closer look

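The difference between macrophage and granulocyte cultures at day 5 differed between knockout and control cells, by the interaction term of limma, for 21 genes. Of the 12 named ones, the difference of log2 differences (knockout minus control) was 2.40 for Saa3, 1.46 for Msr1, 1.22 for Gnat3 and 1.07 for Agpat4. It was -2.25 for Il13, -2.08 for Ccl17, -1.80 for Car2, -1.36 for Serpina3f, -1.16 for Tal1, -1.03 for Fam92a, -0.98 for Igfbp4 and -0.82 for Nedd4. All 21 calls were lost without knockout granulocyte replicate 2, and all without replicate 3.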

How the results depend on the processing

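The 1838 knockout calls at day 5 became 4873 with the replicate block, 3980 in a fit of the 2 groups alone and 845 to 1559 on leaving out 1 library. The 382 control calls became 227 with a filter of 5 TPM, 1520 with the replicate block, 158 in the 2 groups alone and 164 to 532 on leaving out 1 library. The 21 genes that differed between genotypes became 10 with a pseudocount of 0.1, 42 with no filter on low values, 2 with a filter of 5 TPM, 44 after median-of-ratios scaling, 37 without the 20 highest genes, 356 with the replicate block and 0 to 56 on leaving out 1 library. Leaving out replicate 1 of both cultures, an alternative chosen after seeing the data, gave 57 such genes where the knockout replicates were left out and 208 where the control replicates were. The 5967 day 7 calls stayed within 1.5 times under every alternative run, at 4677 to 5769 on leaving out 1 library. Of 104 called genes among the 131 examined, 75 kept their call under every alternative that tested them, 15 or 16 each, and 0 reversed. The 104 kept it with the replicate block. With no filter on low values, calls such as those of Car4, Mmp13, Ch25h, Ccl24, Nr1h3, Plin2, Kit, Csf2rb2 and Cebpb were lost, and with a pseudocount of 5 those of Mmp13, Ch25h and Nr1h3. Among the 131, 5 genes that had not passed changed sign, and the cause was not tested. Csf1r became 0.0891 after scaling, 0.0987 without replicate 1 of both cultures and -0.156 to 0.0246 on leaving out 1 library. Il6ra became 0.119 after scaling, 0.00329 without the 20 highest genes and -0.194 to 0.132 on leaving out 1 library. S100a9 ran between -0.071 and 0.188 and Socs3 between -0.11 and 0.2 on leaving out 1 library, and Cd74 became 0.0141 after scaling. The list of structural RNA and histone genes has no value where these genes are left out. Depth is unknown, so the precision of low values cannot be given.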
